A study of Homo sapiens with 34 samples.

Results

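The expression of 48 genes of DNA replication and mitosis was followed while human embryonic stem cells formed blood. The genes were taken by name from a table of 20255 genes, and each name matched 1 row. They fall into 23 S-phase genes, whose products license and fire replication origins, copy DNA or supply its building blocks, and 25 mitotic genes, whose products start mitosis, build the spindle, hold chromosomes to it and guard their separation. Genes reaching 10 or more in 3 or more samples were tested, 19788 in all, and all 48 members were among them.

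RNA was sequenced from H1, an established human embryonic stem cell line, and from cells derived from it in 34 samples of 12 populations. Apart from 1 sample of undifferentiated H1 cells, each population had 3 samples, which the study describes as independent biological replicates. Unsorted cells were taken on day 0, when embryoid bodies were set to attach to collagen IV, and on days 2 and 4. The cultures of days 6, 9 and 12 were sorted into cells with and without CD43, a sialoglycoprotein carried by blood cells (CD43+ and CD43-). On day 16 they were sorted by CD43 and by CD45, the common leukocyte antigen, into cells that the paper writes as CD43+/CD45+ and CD43-CD45-. For brevity these are termed day 16 CD43+ and day 16 CD43-. Whether the positive cells had to carry both antigens is not stated. Undifferentiated cells were kept in mTeSR1, a stem cell medium. BMP4 and VEGF were given from the attachment of the embryoid bodies on day 0, VEGF was later the sole growth factor, and no haematopoietic cytokines were added. A single cell line stands behind every sample.

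The values are GC-normalised tag counts that the authors brought to a common distribution. Sorted by size, they were the same in all 34 samples, with a median of 197, so a value behaves much like a rank and places a gene relative to the others of its sample, not per cell. The number of reads per sample is unknown. SPN, the gene of CD43, lay between 2338 and 9460 in the CD43+ samples and between 18 and 328 in the CD43- samples. PTPRC, the gene of CD45, was at 634 to 15868 in the CD43+ samples from day 9 onwards but at 0 to 8 on day 6. A list of 5 mesenchymal genes summed to 145898 to 245542 in the CD43- samples of the 4 days and to 2725 to 64190 in the CD43+ samples, with none of the 5 at 0 in these samples. The highest value in the data, 90700, acts as a ceiling, and COL3A1 of this list stood at it in each of these CD43- samples. Such sums therefore rest largely on single genes. A lower value may come from fewer dividing cells or from less of the transcript in each cell, and in bulk RNA these cannot be told apart.

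Before DNA is copied, the origin recognition complex, CDC6 and CDT1 load the MCM helicase on chromatin, and CDC45 and the GINS complex then switch it on. At the end of the cycle, CDK1 with cyclins A and B drives cells into mitosis, where the kinetochore, motor proteins and the checkpoint kinases separate the chromosomes. Many S-phase genes are transcribed through E2F sites as cells leave their resting phase, whereas many mitotic genes are held back until later by complexes bound to the cell cycle genes homology region (CHR), often with CCAAT boxes beside it.

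Promoter sequences were taken from RefSeq (GRCh38.p14) for 41 members, 20 S-phase and 21 mitotic. TTK, MCM4, TPX2, BIRC5, MCM5, CCNE2 and AURKA had no entry in the table. In the 250 bases before the transcription start, 3 motifs were searched on both strands. The E2F motif was TTTCGCGC, TTTGGCGC or TTTCCCGC, the CHR was TTTGAA or TTTAAA, and the third was CCAAT. Matches of one motif may overlap those of another, or one on the other strand.

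The E2F motif was present in 8 of 20 S-phase genes (40.0%) and 2 of 21 mitotic genes (9.52%), and in 2.85% of all 27305 genes of the table. The CHR was present in 15 of 21 mitotic genes (71.4%) and 4 of 20 S-phase genes (20%), against 25.5% of all genes. CCAAT was common to both classes, with 15 S-phase genes (75%) and 17 mitotic genes (81%) against 37.0% of all genes. Counted over the 35116 listed promoters in place of genes, the shares were 2.32%, 21.9% and 32.0% for the E2F motif, the CHR and CCAAT. Such matches describe the letters and are not evidence of binding.

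The following stretches of 100 bases end at the base before the start and overlap no annotated exon, with the E2F motif of the helicase subunit MCM6 (chr2:135876444-135876543, reverse strand) and the CHR of the spindle motor KIF11 (chr10:92593030-92593129, forward strand) and of the proliferation marker MKI67 (chr10:128126424-128126523, reverse strand) in capitals. In MCM6 the capitals hold 2 overlapping E2F matches, one on each strand.
MCM6: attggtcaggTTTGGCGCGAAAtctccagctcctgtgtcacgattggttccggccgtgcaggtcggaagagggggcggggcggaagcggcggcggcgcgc
KIF11: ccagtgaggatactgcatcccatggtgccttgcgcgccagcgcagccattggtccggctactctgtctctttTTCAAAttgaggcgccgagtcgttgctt
MKI67: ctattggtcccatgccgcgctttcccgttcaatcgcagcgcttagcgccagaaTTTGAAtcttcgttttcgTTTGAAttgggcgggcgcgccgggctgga

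Windows of 30 bases around the match nearest the start set the classes side by side, first for the S-phase genes GINS2 (chr16:85688967-85688996, reverse strand), CDT1 (chr16:88803743-88803772, forward strand) and TYMS (chr18:657603-657632, forward strand), with the E2F motif in capitals. They are followed by the mitotic genes CCNB1 (chr5:69167108-69167137, forward strand), CCNB2 (chr15:59105105-59105134, forward strand), PLK1 (chr16:23678848-23678877, forward strand) and BUB1B (chr15:40161034-40161063, forward strand), with the CHR in capitals.
GINS2: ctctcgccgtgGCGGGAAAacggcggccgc
CDT1: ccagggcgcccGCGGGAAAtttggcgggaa
TYMS: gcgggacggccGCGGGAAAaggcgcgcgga
CCNB1: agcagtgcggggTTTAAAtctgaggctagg
CCNB2: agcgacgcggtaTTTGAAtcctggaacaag
PLK1: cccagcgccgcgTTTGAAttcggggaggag
BUB1B: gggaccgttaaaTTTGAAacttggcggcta

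The printed genes were picked for matches close to the start, apart from MCM6. Over all 13 mitotic genes with a single listed start and a CHR, the nearest match began from 18 bases (CENPA) to 151 bases (TOP2A) before it, with 30 in CCNB1, 29 in CCNB2, PLK1 and MKI67, 28 in KIF11 and 23 in BUB1B. Over the 6 such S-phase genes with an E2F motif it began from 31 bases (GINS2) to 174 bases (MCM3) before the start, with 35 in CDT1, 39 in TYMS, 86 in MCM6 and 137 in POLA1.

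**Figure D1:**
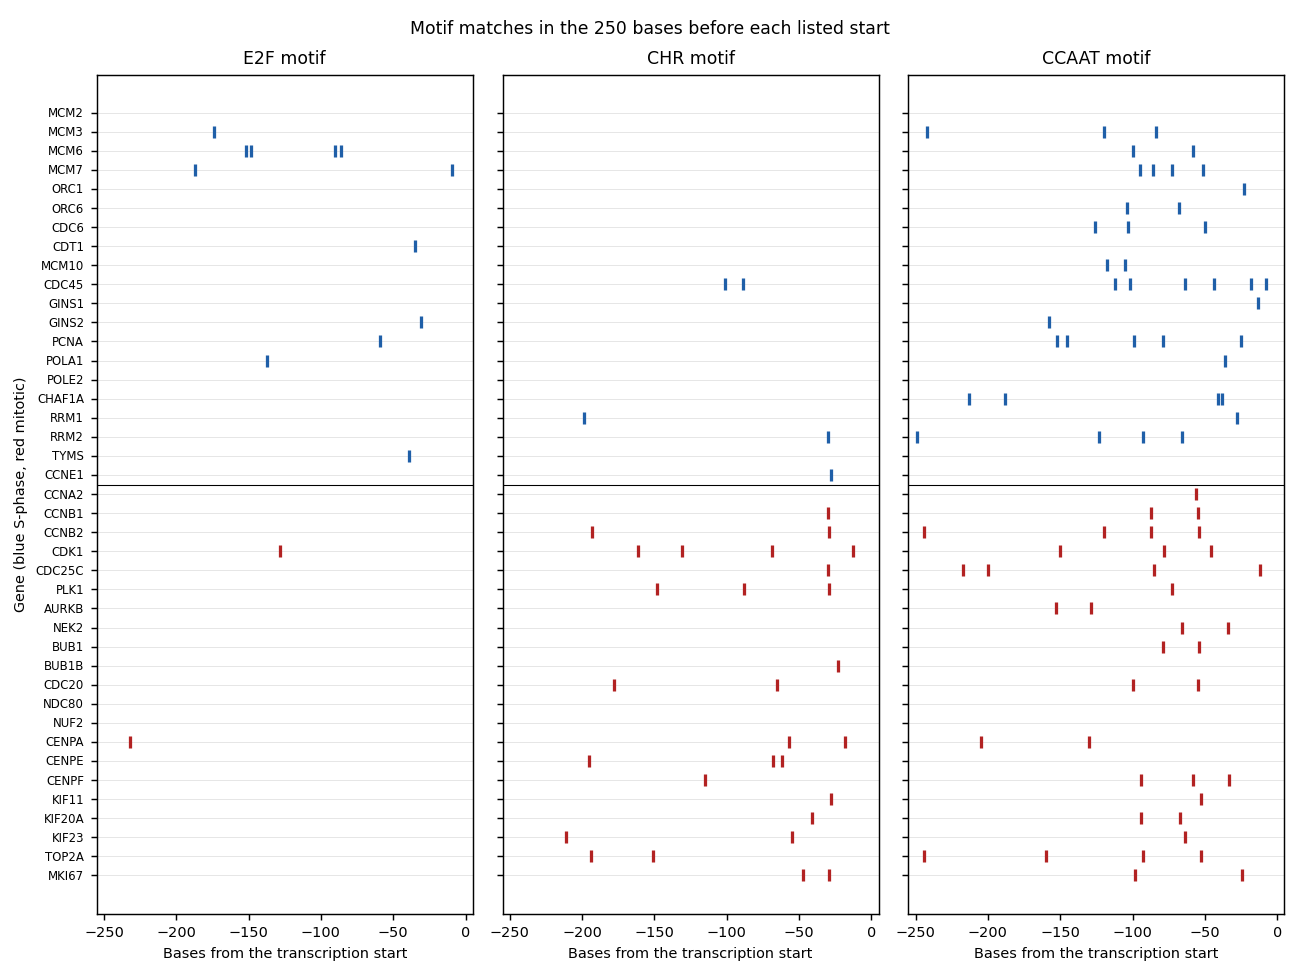
Position of each motif match in bases from the transcription start (x axis, start at 0) for the 41 members with a RefSeq promoter (y axis), S-phase genes in blue above the line and mitotic genes in red below it, with 1 panel per motif. E2F matches appear in 8 S-phase and 2 mitotic genes and CHR matches in 4 S-phase and 15 mitotic genes, and CCAAT matches are spread over both classes.

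To follow each class through the differentiation, the log2(value + 1) of its members was averaged in each sample and set against the day 0 mean. The S-phase level relative to day 0 was 0.23 ± 0.02 (SD, n = 3) on day 2 and -0.06 ± 0.07 on day 4. The mitotic level stayed at 0.01 ± 0.03 and 0.08 ± 0.03 on these days. Until the first sort, both classes thus remained near the level of the embryoid bodies.

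Over the 4 sorted days, the S-phase level of CD43+ cells was -0.32 ± 0.13, 0.44 ± 0.03, -0.59 ± 0.16 and -1.17 ± 0.18. The mitotic level in the same cells was -0.95 ± 0.16, -0.31 ± 0.03, -1.04 ± 0.02 and -1.11 ± 0.13. Both classes were highest among the sorted cells in the day 9 CD43+ samples, where the S-phase genes lay above day 0 in all 3 samples and the mitotic genes below it in all 3.

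In CD43- cells both classes declined with time. In the same order of days, the S-phase level was -0.97 ± 0.32, -1.27 ± 0.37, -2.56 ± 0.71 and -3.05 ± 0.07. The mitotic level was -1.32 ± 0.41, -1.76 ± 0.40, -2.94 ± 0.92 and -3.51 ± 0.09. The day 12 CD43- samples were the most spread, from -3.24 to -1.82 for the S-phase and from -3.76 to -1.95 for the mitotic genes, and replicate 1 was the highest in both.

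The mitotic level minus the S-phase level in the same sample was -0.22 ± 0.01 on day 2, where no sample overlapped those of day 0, and 0.14 ± 0.10 on day 4. In CD43+ cells it then went from -0.62 ± 0.05 (day 6) through -0.75 ± 0.06 (day 9) and -0.45 ± 0.13 (day 12) to 0.07 ± 0.07 (day 16), so the day 16 samples, at -0.01 to 0.12, did not overlap the day 12 samples, at -0.58 to -0.31. In CD43- cells the difference moved less, between -0.35 ± 0.10 on day 6 and -0.49 ± 0.05 on day 9, with -0.39 ± 0.22 (day 12) and -0.46 ± 0.04 (day 16) later. These class levels are descriptions and were not tested. Sorting began after day 4 and its markers changed between days 12 and 16, so day and sort cannot be told apart at these steps.

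**Figure D2:**
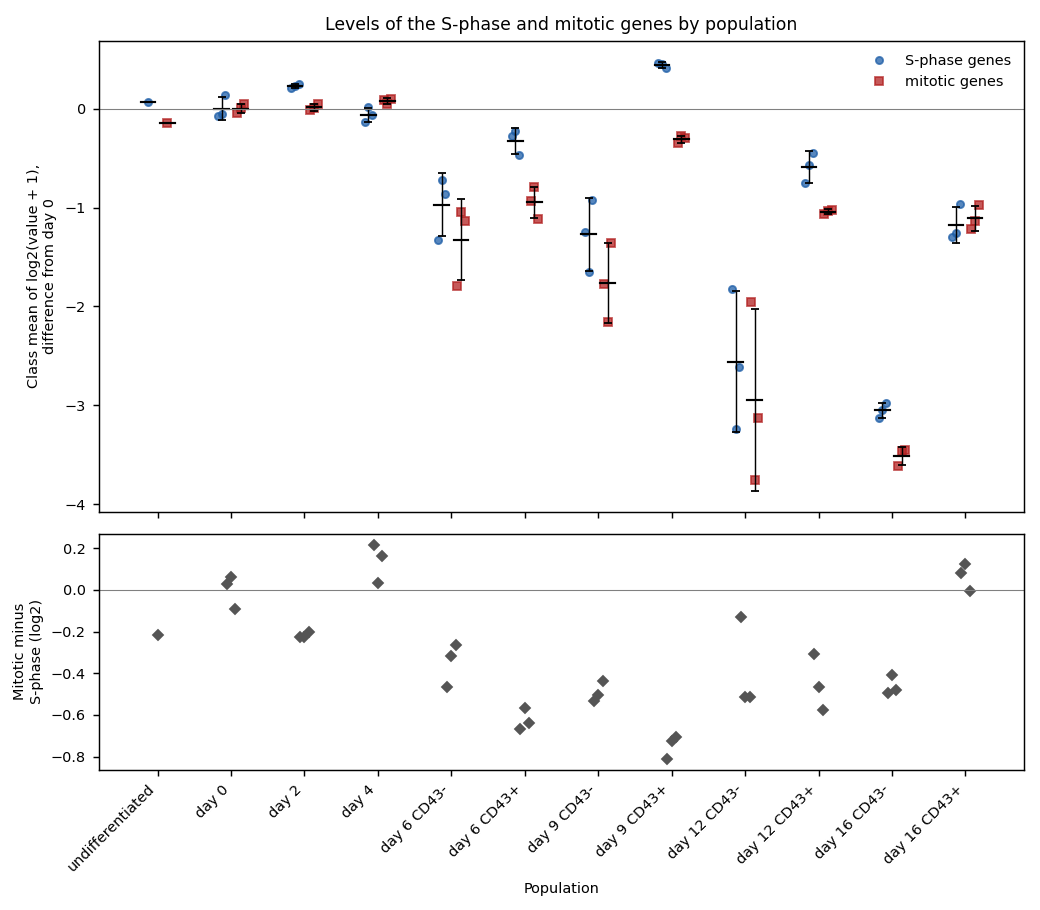
Upper panel, class mean of log2(value + 1) relative to the day 0 mean (y axis) for S-phase genes (blue circles) and mitotic genes (red squares) in each of the 12 populations (x axis), with 1 point per sample and black bars for the mean ± SD of 3 samples (1 sample for undifferentiated cells). Lower panel, mitotic minus S-phase level of each sample, lowest in day 9 CD43+ cells and back near 0 in day 16 CD43+ cells.

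Gene by gene, among the 11 populations with replicates, the highest mean was that of day 9 CD43+ cells for 16 of 23 S-phase genes, day 2 for 6 and day 4 for 1. Of the 25 mitotic genes, 2 were highest in day 9 CD43+ cells, and days 4, 2 and 0 held 10, 7 and 6 of the maxima. The single undifferentiated sample lay above the highest of these means for MCM3 (7024), POLA1 (1371) and CCNE1 (908). The lowest mean was that of day 16 CD43- cells for 21 S-phase genes and for all 25 mitotic genes, with CCNE1 (day 16 CD43+ cells) and POLE2 (day 12 CD43- cells) as the exceptions. The ratio of the highest to the lowest population mean ranged from 5.19 to 34.6 over the S-phase genes (median 14.3) and from 7.29 to 51.5 over the mitotic genes (median 13.2).

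**Figure D3:**
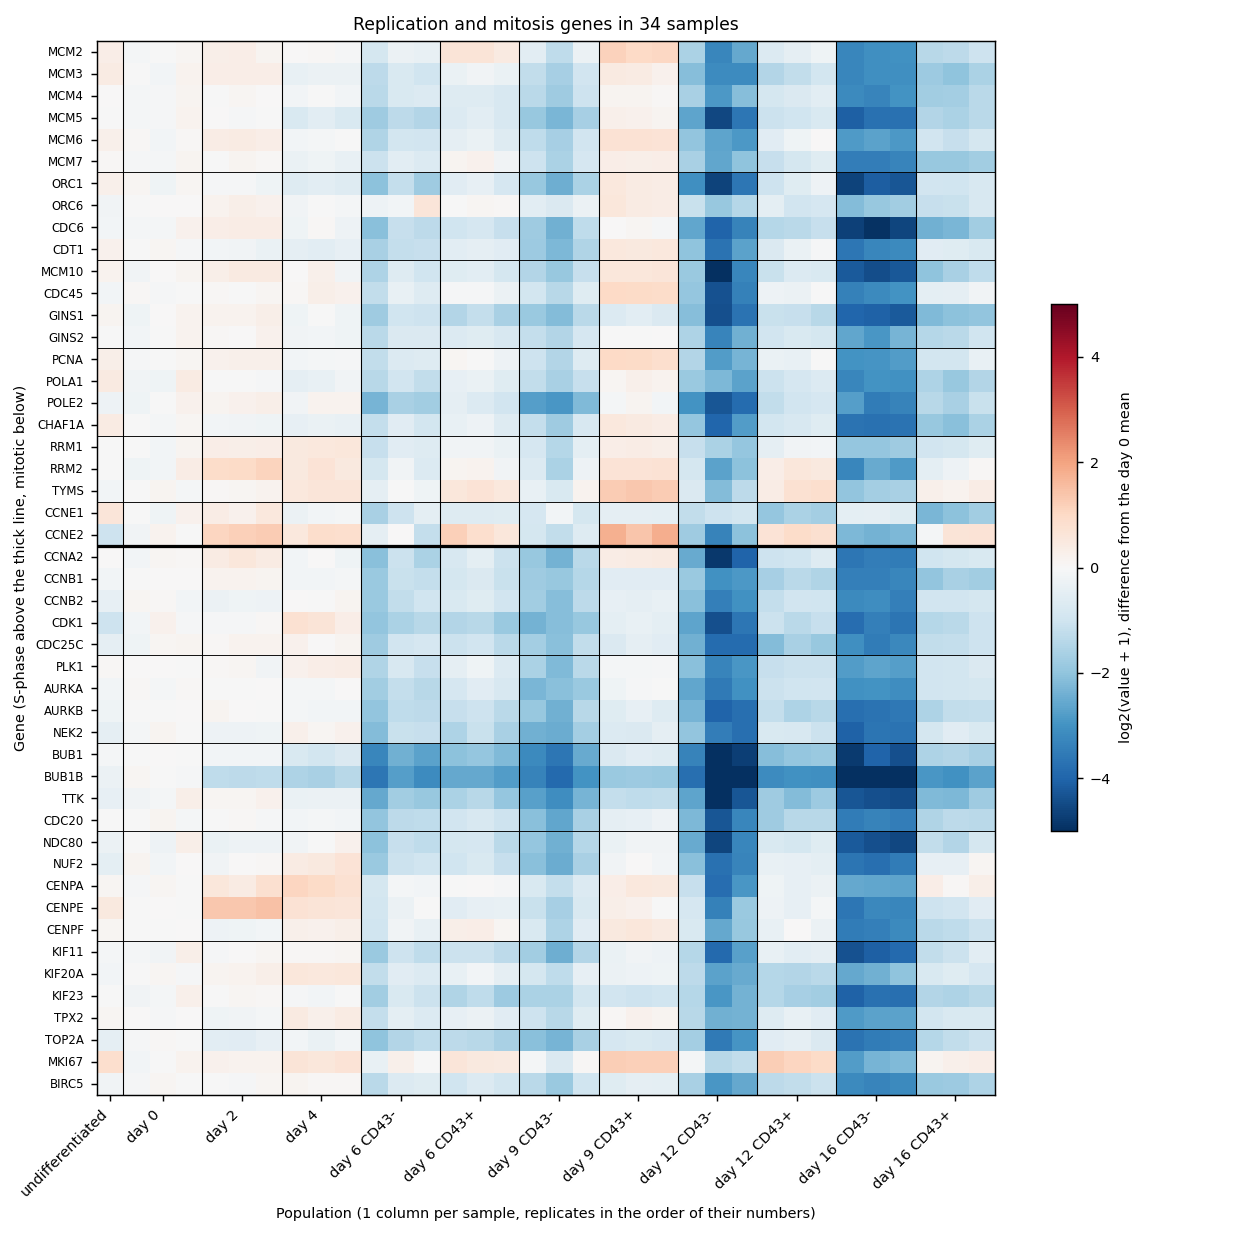
Heat map of log2(value + 1) relative to the day 0 mean (colour, red above and blue below, saturating at 5 in either direction) for the 48 genes (rows, grouped by role, S-phase above the thick line) in 34 samples (columns, grouped by population). The day 12 and day 16 CD43- columns are the darkest blue, with replicate 1 of the day 12 CD43- cells paler than replicates 2 and 3, and the day 9 CD43+ columns are red for most S-phase genes.

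The comparison of CD43+ with CD43- cells asked whether cells of the blood lineage carried more replication and mitosis transcripts than the other cells of the same culture. On day 6, 19 of 48 genes were higher in CD43+ cells at an adjusted p below 0.05 (limma with Benjamini-Hochberg adjustment over all genes), 13 of them S-phase and 6 mitotic, against 28.9% of all genes tested. No gene passed the authors' thresholds of an adjusted p below 0.05 and a change above 4-fold, against 12.5% of all genes called in either direction. At an unadjusted p below 0.05, 23 genes were higher and 0 lower. The class medians of the log2 fold change were 0.65 for the S-phase and 0.44 for the mitotic genes, and 0.14 over all genes.

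By role, the genes higher on day 6 included 5 of 6 MCM2-7 subunits and 3 of 4 genes of DNA synthesis and chromatin assembly, and none of the 4 helicase activators. CCNE2, a cyclin of S-phase entry, had the largest change, at 140, 108 and 90 in CD43+ against 44, 62 and 26 in CD43- samples (log2 fold change 1.40, standard error 0.32, adjusted p = 0.000734, limma). GINS1 was lowest among the S-phase genes (-0.14, standard error 0.31, adjusted p = 0.734, limma) and KIF23, a motor of cytokinesis, among the mitotic genes (-0.34, standard error 0.25, adjusted p = 0.268, limma). CCNA2, cyclin A2, was the highest mitotic gene (0.80, standard error 0.33, adjusted p = 0.0433, limma). With same-numbered samples taken as pairs, 16 genes were higher and CCNA2 was not among them, and without replicate 1 of the CD43- cells 12 were higher and 1 lower, with a mitotic median of 0.19. Median-of-ratios scaling gave 14 genes higher and a mitotic median of 0.28. CCNA2 also missed the threshold with median-of-ratios scaling and without replicate 1 or 3 of the CD43- or replicate 1 or 2 of the CD43+ cells.

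On day 9, 46 genes were higher in CD43+ cells, against 38.5% of all genes, with CCNE1 and KIF23 the exceptions. Of these, 8 were called at over 4-fold, against 8.65% of genes called higher, namely ORC1, CDT1, MCM5, MCM10, POLE2, CCNE2, CCNA2 and BUB1. POLE2, a subunit of the leading-strand polymerase, stood at 273, 323 and 265 in CD43+ and at 42, 38 and 62 in CD43- samples (log2 fold change 2.60, standard error 0.26, adjusted p = 2.53e-09, limma). BUB1, a kinase of the spindle checkpoint, was at 2388, 2680 and 2488 against 428, 318 and 674 (2.48, standard error 0.42, adjusted p = 1.13e-05, limma). For these 2 genes every CD43+ value lay above every CD43- value, which held for 46 of the 48 genes and for 42.2% of all genes. Median log2 fold changes were 1.71 for the S-phase and 1.47 for the mitotic genes, against 0.24 over all genes. Without replicate 3 of the CD43- cells, 14 genes were called in place of 8. A list of 5 erythroid genes summed to 115817 to 192483 in these CD43+ samples and to 270 to 500 in the CD43- samples. HBE1 stood at the ceiling of 90700 in each of these CD43+ samples, and HBZ was at 90700, 17338 and 90700. On day 6 the same list summed to 105627 to 113922 in the CD43+ and to 89 to 116 in the CD43- samples. The part of this cell make-up in the result of either day was not tested.

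On day 12, 47 genes were higher in CD43+ cells and CCNE1 was lower, against 38.9% and 29.1% of all genes. Of the higher genes, 24 were called at over 4-fold, 13 S-phase and 11 mitotic, against 11.8% of all genes called higher. The median log2 fold change was 2.06 for the S-phase and 1.98 for the mitotic genes, and 0.22 over all genes. Every CD43+ value lay above every CD43- value for 45 genes, against 35.2% of all genes. KIF23 had the smallest rise (0.63, standard error 0.25, adjusted p = 0.0263, limma), which missed the threshold with median-of-ratios scaling, in a fit of the compared samples alone, and without replicate 2 or 3 of the CD43- or replicate 1 of the CD43+ cells.

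The count of 24 depended on single CD43- samples. Leaving out replicate 2 of the day 12 CD43- cells gave 10, and leaving out replicate 1 gave 34. Replicate 1 had the highest member levels of the 3 and held PTPRC at 4, MPO, a neutrophil granule enzyme, at 16 and CSF1R, a macrophage receptor, at 71. Replicates 2 and 3 held PTPRC at 197 and 371, MPO at 324 and 4608 and CSF1R at 1379 and 2314. In a list of 5 pluripotency genes, each gene was highest in replicate 1. In replicates 1, 2 and 3, POU5F1 was at 397, 44 and 48, NANOG at 46, 8 and 14 and SOX2 at 30, 4 and 2. DNMT3B was at 816, 464 and 416 and L1TD1 at 774, 86 and 234. A list of 5 macrophage genes summed to 132 to 4163 in the CD43- samples and 15657 to 57093 in the CD43+ samples, with none of the 5 at 0. A list of 4 neutrophil genes summed to 80 to 6286 and to 137413 to 154295 in the same samples, with PRTN3 at 0 in 1 sample and MPO at the ceiling of 90700 in each CD43+ sample. The part of these transcripts in the difference was not tested.

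Among the S-phase genes, values by sample on day 12 are given for the member with the largest change in each role. ORC1 (ENSG00000085840, chr1:52372829-52404459), the largest subunit of the origin recognition complex, stood at 510, 688 and 872 in CD43+ and at 122, 41 and 83 in CD43- samples, a log2 fold change of 3.16 (standard error 0.27). MCM5 (ENSG00000100297, chr22:35400063-35425430), a helicase subunit, was at 2680, 2812 and 3310 against 918, 238 and 465 (2.64, standard error 0.25). Both genes were separated without overlap, and replicate 1 was the highest CD43- sample in each.

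CDC45 (ENSG00000093009, chr22:19479459-19520612), which activates the helicase, was at 426, 419 and 509 in CD43+ and at 135, 24 and 49 in CD43- samples, a log2 fold change of 3.02 (standard error 0.32). POLE2 (ENSG00000100479, chr14:49643555-49688422) was at 122, 148 and 163 against 36, 14 and 19 (2.69, standard error 0.26). The same order of the CD43- samples was seen for RRM2 (ENSG00000171848, chr2:10122328-10131419), a ribonucleotide reductase subunit that supplies deoxynucleotides, at 2678, 3190 and 3014 against 1166, 336 and 514 (2.33, standard error 0.31). Of the S-phase genes named by this rule, the highest adjusted p was that of RRM2 (1.74e-07, limma).

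Among the mitotic genes, the same rule gave CCNA2 (ENSG00000145386, chr4:121816444-121823933), at 1181, 1228 and 1552 in CD43+ and 428, 86 and 152 in CD43- samples (2.88 on the log2 scale, standard error 0.33). BUB1 (ENSG00000169679, chr2:110637698-110678114) was at 892, 1024 and 1082 against 391, 38 and 149 (2.92, standard error 0.42). Its standard error was larger than those of the S-phase genes above. NEK2 (ENSG00000117650, chr1:211658657-211675630), a kinase of centrosome separation, was at 264, 255 and 213 against 114, 40 and 32 (2.18, standard error 0.31).

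NDC80 (ENSG00000080986, chr18:2571511-2616635), which links kinetochores to microtubules, was at 648, 596 and 724 in CD43+ and 190, 44 and 112 in CD43- samples (log2 fold change 2.73, standard error 0.32). KIF11 (ENSG00000138160, chr10:92593286-92655395), whose CHR is printed above, was at 1584, 1452 and 1521 against 774, 139 and 318 (2.22, standard error 0.34). TOP2A (ENSG00000131747, chr17:40388516-40417950), the topoisomerase that untangles sister chromatids, was at 7320, 7902 and 6690 against 3371, 946 and 1425 (2.14, standard error 0.26). All 6 mitotic genes were separated without overlap, and the highest adjusted p was that of KIF11 (2.02e-06, limma).

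On day 16 the difference was again 47 genes higher and CCNE1 lower, against 37.3% and 30.1% of all genes. More mitotic than S-phase genes were called at over 4-fold, 20 of 25 against 10 of 23, with 12.2% of all genes called higher. All 5 centromere and kinetochore genes and all 4 of the spindle checkpoint group were called, but 1 of 6 MCM2-7 subunits. Medians were 2.34 for the mitotic and 1.88 for the S-phase genes, against 0.14 over all genes. Every CD43+ value lay above every CD43- value for 47 genes, against 40.3% of all genes.

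NUF2, the partner of NDC80, stood at 424, 432 and 608 in day 16 CD43+ and at 44, 41 and 50 in CD43- samples (log2 fold change 3.39, standard error 0.27, adjusted p = 1.78e-11, limma). ORC1 was at 530, 514 and 592 against 41, 58 and 52 (3.42, standard error 0.27, adjusted p = 1.05e-11, limma). BIRC5, survivin of the chromosomal passenger complex, had the smallest mitotic change, at 620, 634 and 769 against 243, 223 and 244 (1.5, standard error 0.22, adjusted p = 9.55e-07, limma). The neutrophil list summed to 6093 to 19907 in these CD43- samples and to 131748 to 163793 in the CD43+ samples, with none of its 4 genes at 0. MPO again stood at 90700 in each CD43+ sample, and the part of the list in the result was not tested.

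**Figure D4:**
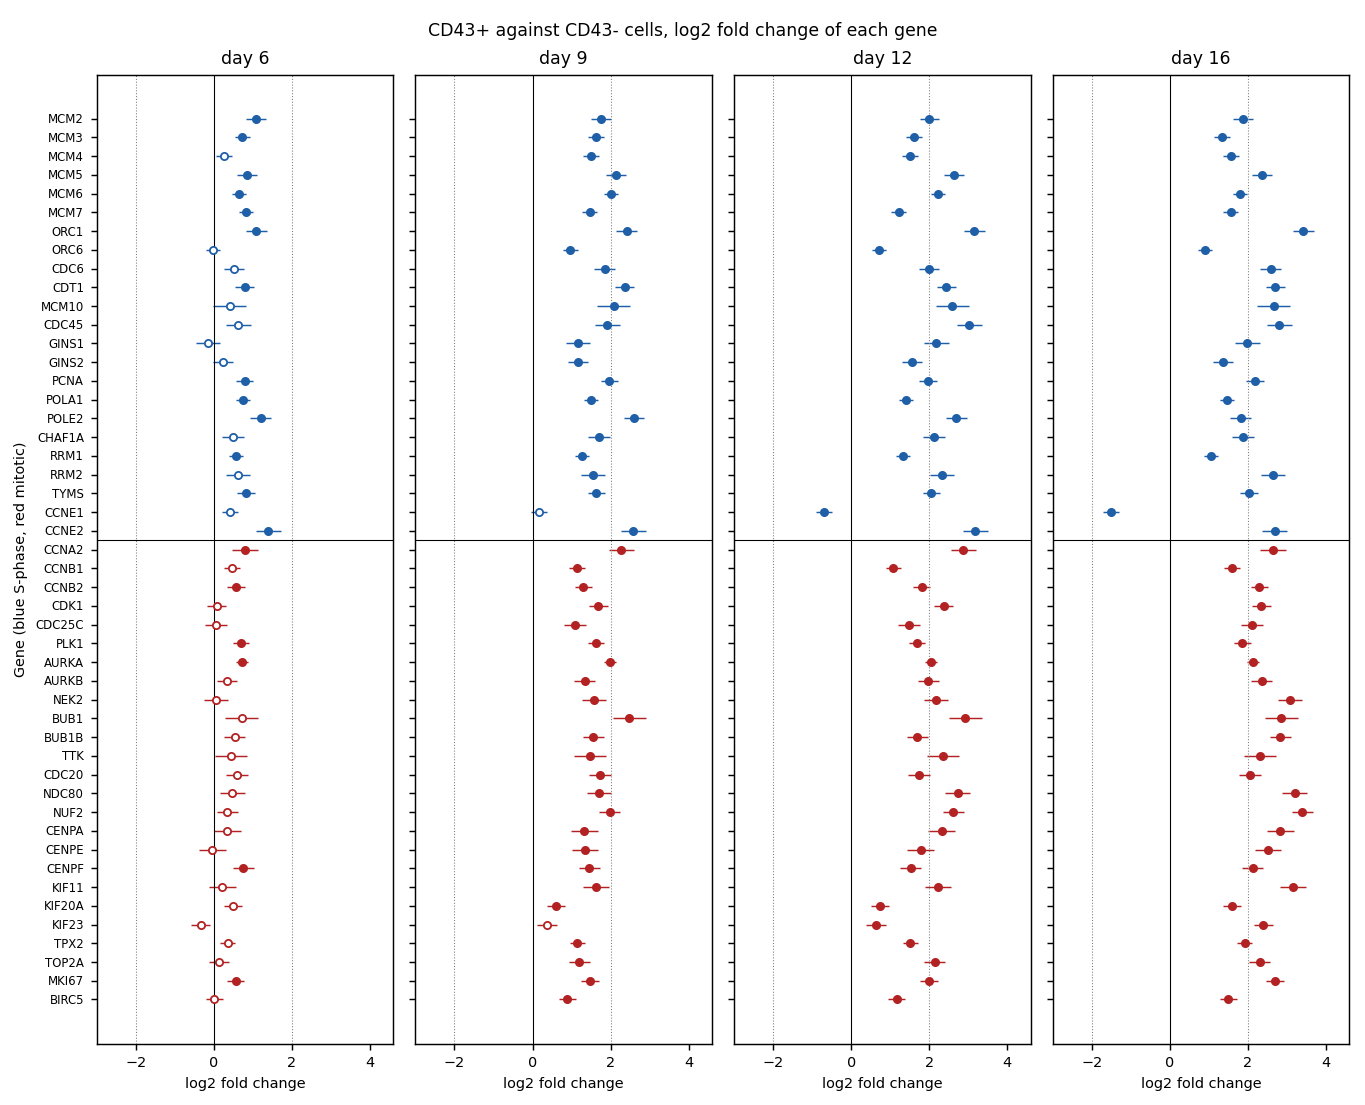
Log2 fold change of CD43+ against CD43- cells (x axis) for each of the 48 genes (y axis) on days 6, 9, 12 and 16, S-phase genes in blue above the line and mitotic genes in red below it. Points are limma estimates with their standard errors, filled where the adjusted p was below 0.05, and dotted lines mark a 4-fold change. All points are filled on days 12 and 16, and all but that of CCNE1 lie right of 0.

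Whether the CD43 difference itself changed between days was tested with an interaction term. It grew from day 6 to day 9 for 28 of 48 genes, against 8.63% of all genes, with 0 of them over 4-fold against 7.39% called, although single samples moved this count of 28. With a replicate block shared by all days the count was 23. For the next step CCNE1 alone differed, lower against 15.1% of all genes with 9.0% called, and for the last step KIF23 and BUB1B went up and CCNE1 went down, against 7.92% and 9.08% with 5.03% called. The fall of CCNE1 was lost under several single-sample omissions in both of these steps, whereas the rise of KIF23 passed in each of them. In the last step the sort changed as well, so day and sort cannot be told apart.

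The cyclin E genes stood apart from each other. CCNE1 (ENSG00000105173, chr19:29811898-29824308) and CCNE2 (ENSG00000175305) both encode cyclins that activate CDK2 at the entry to S phase. CCNE1 was at 442, 436 and 429 in day 9 CD43+ and at 332, 545 and 330 in day 9 CD43- samples, and the log2 fold change was 0.16 (standard error 0.20, adjusted p = 0.512, limma) and -0.06 with median-of-ratios scaling. On day 12 it was at 157, 199 and 186 in CD43+ and 258, 296 and 322 in CD43- samples, lower in CD43+ cells in all 3 (-0.69, standard error 0.20, adjusted p = 0.00391, limma). On day 16 it was at 124, 146 and 180 against 435, 446 and 392 (-1.51, standard error 0.20, adjusted p = 2.69e-07, limma).

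CCNE2 went the other way, with 98, 114 and 105 in day 12 CD43+ and 17, 5 and 14 in CD43- samples (log2 fold change 3.18, standard error 0.32, adjusted p = 1.69e-09, limma). On day 16 it was at 56, 94 and 98 against 12, 11 and 12 (2.68, standard error 0.32, adjusted p = 3.91e-08, limma). CCNE1 was also the one S-phase gene that rose in CD43- cells from day 12 to day 16 (0.54, standard error 0.20, adjusted p = 0.0313, limma), although it did not pass without replicate 1 or 2 of the day 12, or replicate 1 or 2 of the day 16 CD43- cells. Its lowest population mean was that of day 16 CD43+ cells, where every other member had its lowest mean in CD43- cells.

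**Figure D5:**
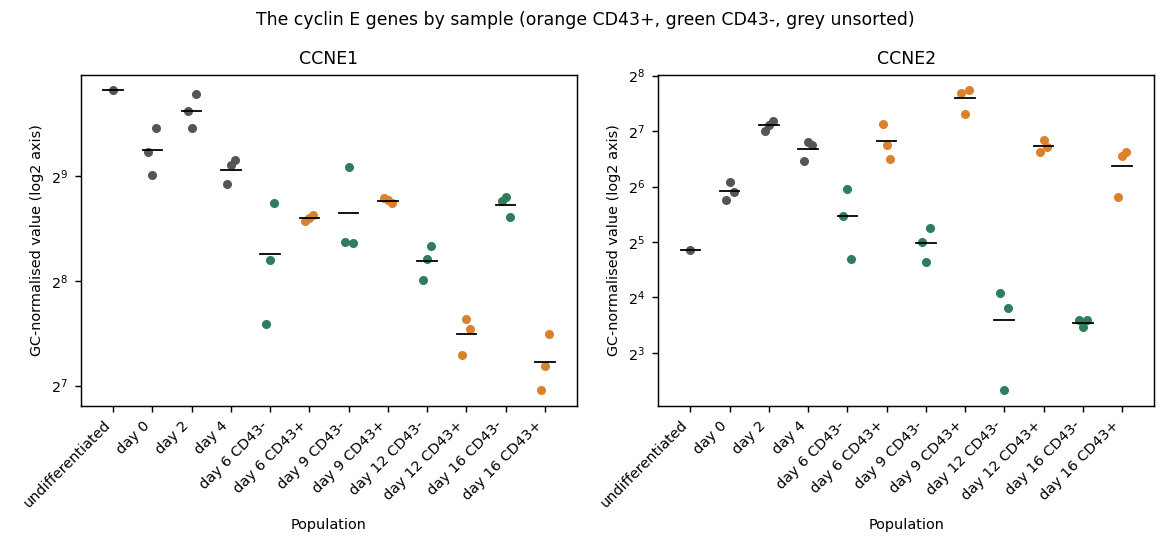
GC-normalised value (y axis, log2 axis) of CCNE1 (left) and CCNE2 (right) in each sample of the 12 populations (x axis), orange for CD43+, green for CD43- and grey for unsorted cells, with bars at the mean. CCNE1 lies lower in CD43+ than in CD43- samples on days 12 and 16, and CCNE2 lies higher.

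Within CD43+ cells, the steps from one sorted day to the next were compared, and no member changed by over 4-fold in any of them. From day 6 to day 9, 25 genes rose, 15 S-phase and 10 mitotic, against 14.1% of all genes, and 7.53% of all genes were called in either direction. No gene fell, at an unadjusted p below 0.05 either (limma). The median log2 fold change was 0.78 for the S-phase and 0.61 for the mitotic genes, against 0.01 over all genes. BUB1 rose from 940, 1012 and 846 to 2388, 2680 and 2488 (1.43, standard error 0.42, adjusted p = 0.0105, limma), and MCM10, a helicase activator, from 591, 626 and 492 to 1330, 1314 and 1368 (1.24, standard error 0.42, adjusted p = 0.0264, limma). CCNE1 (0.17, adjusted p = 0.595, limma) and KIF20A (0.07, adjusted p = 0.865, limma), a motor of cytokinesis, had the smallest changes of their classes. Leaving out replicate 3 of day 6 gave 11 genes and leaving out replicate 2 of day 9 gave 15, and there were 45 in a fit of the compared samples alone.

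From day 9 to day 12, 37 genes fell in CD43+ cells, 21 S-phase and 16 mitotic, against 32.4% of all genes, and 15.0% of all genes were called in either direction. The median log2 fold change was -1.05 for the S-phase and -0.71 for the mitotic genes, against -0.15 over all genes. MCM3, a helicase subunit, went from 7150, 7024 and 6063 to 1914, 2243 and 2804 (-1.55, standard error 0.20, adjusted p = 2.69e-07, limma). BUB1 fell by 1.34 on the log2 scale (standard error 0.42, adjusted p = 0.00889, limma). TOP2A, by contrast, was at 6064, 6357 and 6135 on day 9 and 7320, 7902 and 6690 on day 12 (0.24, standard error 0.26, adjusted p = 0.456, limma). RRM2 was the least changed S-phase gene (-0.25, standard error 0.31, adjusted p = 0.513, limma).

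From day 12 to day 16 the classes differed in their counts in CD43+ cells. Day 16 cells were sorted by CD45 as well, so day and sort cannot be told apart. Of the S-phase genes 10 fell and 0 rose (0 also at an unadjusted p below 0.05, limma), among them 5 of 6 MCM2-7 subunits. Of the mitotic genes 3 fell (CENPF, MKI67 and TOP2A) and 2 rose (CDC25C and KIF20A), with 20 not past the threshold. In all genes, 21.1% fell and 21.3% rose, and 9.05% were called. The S-phase and mitotic medians were -0.58 for the S-phase and 0.06 for the mitotic genes, against 0.05 over all genes.

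CHAF1A, a subunit of the chromatin assembly factor, went from 1320, 1419 and 1615 to 670, 580 and 835 (-1.07, standard error 0.28, adjusted p = 0.00313, limma). CENPF, a kinetochore protein, went from 4954, 6460 and 5245 to 2518, 2631 and 3010 (-1.02, standard error 0.27, adjusted p = 0.00302, limma). CDC25C, the phosphatase that activates CDK1, rose from 94, 135 and 112 to 178, 182 and 206 (0.74, standard error 0.28, adjusted p = 0.036, limma). These genes were picked as ends of their classes, and their day 12 and day 16 samples did not overlap. Of the 48 members, 7 had every day 16 value above every day 12 value and 23 had every one below. The share over all genes is not given here. Without replicate 2 of the day 16 CD43+ cells neither rise passed, 1 of them passed without any one of the other day 16 replicates or without replicate 1 or 3 of day 12, and 4 genes rose in a fit of the compared samples alone. CDC45 had the smallest change among the S-phase genes (-0.19, standard error 0.32, adjusted p = 0.679, limma).

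In CD43- cells, 2 genes fell from day 6 to day 9, ORC6 (-0.59, standard error 0.18, adjusted p = 0.0461, limma) and the mitotic kinase AURKA (-0.63, standard error 0.16, adjusted p = 0.0133, limma), both named after their values were seen, against 2.92% of all genes, and 1.75% were called in either direction. At an unadjusted p below 0.05, 11 fell and 1 rose. The changes of POLE2 (-0.73, adjusted p = 0.0989), CENPE (-0.77, adjusted p = 0.187), CCNE1 (0.43, adjusted p = 0.225) and KIF20A (-0.04, adjusted p = 0.966) marked the ends of their classes in limma. Without replicate 2 of day 6 or replicate 1 of day 9 neither gene passed, without replicate 3 of day 6 or replicate 2 of day 9 a single gene fell (1 in each case), without replicate 1 of day 6 it was 4, and 0 fell in a fit of the compared samples alone.

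From day 9 to day 12, 45 of 48 genes fell in CD43- cells, against 20.8% of all genes. CDC45 was called at over 4-fold, going from 270, 194 and 340 to 135, 24 and 49 (-2.24, standard error 0.32, adjusted p = 7.91e-06, limma), against 2.8% of all genes called lower. CCNA2 fell by 1.92 (standard error 0.33, adjusted p = 5.72e-05, limma) and MKI67 by 0.65 (standard error 0.22, adjusted p = 0.0231, limma), whereas CCNE1 did not pass (-0.43, standard error 0.20, adjusted p = 0.102, limma). The median log2 fold change was -1.20 for the S-phase and -1.07 for the mitotic genes, against -0.07 over all genes. In a fit of the compared samples alone, 5 genes fell and 0 were called. The called count was 13 without replicate 1, 0 without replicate 2 and 2 without replicate 3 of day 12, and 6 without replicate 2 of day 9.

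From day 12 to day 16 a further 20 genes fell and CCNE1 rose in CD43- cells, against 20.8% and 24.8% of all genes, and 10.4% of all genes were called. CD45 was part of the day 16 sort alone, so day and sort cannot be told apart here either. PTPRC was at 4, 197 and 371 in the day 12 and at 18, 42 and 22 in the day 16 CD43- samples. CENPF went from 3750, 1076 and 1736 to 570, 596 and 702 (-1.62, standard error 0.27, adjusted p = 2.03e-05, limma) and CDC6, a loader of the helicase, from 278, 104 and 162 to 64, 54 and 68 (-1.42, standard error 0.27, adjusted p = 0.000102, limma). BUB1 was not past the threshold (0.49, standard error 0.42, adjusted p = 0.353, limma), and its change turned to -0.38 without replicate 2 of day 12. The median log2 fold change was -0.55 for the S-phase and -0.60 for the mitotic genes, against 0.08 over all genes. The count that fell was 11 without replicate 1 and 32 without replicate 2 of the day 12 CD43- cells, and 7 in a fit of the compared samples alone, and 3 genes were called without replicate 2. Without replicate 1, 6 genes rose and the S-phase and mitotic medians were both -0.12, and without replicate 2 no rise passed and they were -0.81 and -0.93.

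Before sorting, few members passed the threshold in the model of all replicated samples, and more did in a fit of the compared samples alone. From day 0 to day 2, CENPE, a kinetochore motor, rose from 2050, 2086 and 2018 to 5196, 5196 and 5642 (log2 fold change 1.38, standard error 0.34, adjusted p = 0.00207, limma), and BUB1B, a spindle checkpoint protein, fell from 6256, 5706 and 5562 to 2416, 2362 and 2416 (-1.28, standard error 0.27, adjusted p = 0.0005, limma). The samples of the days did not overlap for either gene, both picked as ends of their class. Of the 48 members, 15 had every day 2 value above every day 0 value and 9 had every one below. The share over all genes is not given here. CCNE2 rose from 54, 68 and 60 to 128, 138 and 146 (1.17, standard error 0.32, adjusted p = 0.00537, limma), and RRM2 by 0.98 (standard error 0.31, adjusted p = 0.0129, limma). These 3 rises and 1 fall among 48 genes compare with 17.8% and 18.6% of all genes, and 7.88% were called. CDT1 had the lowest value of the S-phase genes (-0.22, adjusted p = 0.538, limma). In a fit of the compared samples alone 15 rose and 5 fell.

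From day 2 to day 4, TPX2, a spindle assembly factor, rose (0.53, standard error 0.19, adjusted p = 0.0354, limma), and MCM3, MCM5, MCM6 and CCNE1 fell, by 0.65, 0.66, 0.47 and 0.56 on the log2 scale (highest adjusted p = 0.0431, limma), with 17.6% of all genes higher, 18.5% lower and 9.5% called. The 5 genes were named after their values were seen, apart from MCM5. Leaving out any single sample of either day left 1 or 2 falls, and the rise of TPX2 remained only without replicate 2 of day 4. In a fit of the compared samples alone, 13 rose and 25 fell. Every day 4 value lay above every day 2 value for 13 of the 48 members, and below for 27. The share over all genes is not given here. CDK1 (0.59, standard error 0.25, adjusted p = 0.0642), CENPE (-0.73, standard error 0.34, adjusted p = 0.0967) and TYMS (0.47, standard error 0.22, adjusted p = 0.0999) did not pass in limma.

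Between day 4 and the day 6 CD43+ cells the classes differed in their counts. Day 4 cells were unsorted, so day, sorted fraction and the handling of the sort cannot be told apart. Of the mitotic genes 22 of 25 fell, and of the S-phase genes 5 of 23, against 24.9% of all genes, with medians of -1.02 and -0.10 and 0.03 over all genes. CDK1, the kinase of mitotic entry, went from 4480, 4116 and 3324 to 948, 1000 and 730, and was called at over 4-fold (-2.15, standard error 0.25, adjusted p = 6.49e-08, limma), against 7.73% of all genes called lower. CENPF, at -0.01 (standard error 0.27, adjusted p = 0.989, limma), was the least changed mitotic gene. GINS1 fell by 1.27 (standard error 0.31, adjusted p = 0.00134, limma), while MCM2 was at 3426, 3544 and 3247 on day 4 and 5318, 5254 and 4615 in the CD43+ cells without passing the test (0.57, standard error 0.25, adjusted p = 0.0602, limma). Every CD43+ value of this helicase subunit lay above every day 4 value. That held for 2 of the 48 members, and for 34 every CD43+ value lay below. The share over all genes is not given here.

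In the day 6 CD43- cells, all 25 mitotic genes and 20 of 23 S-phase genes were below day 4, against 25.2% of all genes, with medians of -1.39 and -0.85 and -0.08 over all genes. CDK1 fell by 2.23 (standard error 0.25, adjusted p = 8.33e-08, limma), against 2.77% of all genes called lower, and POLE2 by 1.96 (standard error 0.26, adjusted p = 1.44e-06, limma). MKI67 fell by 0.68 (standard error 0.22, adjusted p = 0.0148, limma), the smallest fall of the mitotic genes. ORC6 stood at 0.16 (standard error 0.18, adjusted p = 0.486, limma) and at -0.10 without replicate 3 of the CD43- cells. CDK1 was the one gene called, and 2 genes were called without replicate 1 or 2 of day 4, 3 without replicate 2 and 4 without replicate 3 of the CD43- cells. Since both day 6 comparisons use the same day 4 samples, they are not independent. In both, sorted cells are set against unsorted cells.

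Further genes of the same processes were listed to set the 48 in context. These lists too were chosen with earlier results of these data known, so they are not independent of the members. The effect of leaving out single samples was not examined for them. On day 12, 31 of 36 other replication genes were higher in CD43+ cells, 10 of them called, with a median log2 fold change of 1.40. Over all genes the shares were 38.9% and 11.8%, with a median of 0.22. ASF1B, a histone chaperone (3.18, standard error 0.27, adjusted p = 4.11e-11, limma), and PRIM1, the catalytic primase subunit (3.09, standard error 0.27, adjusted p = 7.25e-11, limma), changed most, and POLD2 (-0.11, adjusted p = 0.527, limma) and ORC3 (-0.07, adjusted p = 0.596, limma) were lowest. Of 40 other mitotic genes 38 were higher and 14 called, with a median of 1.76, led by the centromere gene CENPM (3.21, standard error 0.23, adjusted p = 1.91e-12, limma) and the condensin gene NCAPH (3.03, standard error 0.33, adjusted p = 7.62e-09, limma). The lowest of them were CDC25B (-0.07, adjusted p = 0.593, limma) and MIS12 (-0.03, adjusted p = 0.854, limma).

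All 11 cell cycle transcription regulators were higher on day 12, 4 of them called, with a median of 1.56, against the same 38.9%, 11.8% and 0.22 over all genes. E2F2, an activating E2F factor, averaged 829 ± 75.2 in CD43+ samples against 44.7 ± 42.8 in CD43- samples (SD, n = 3, log2 fold change 4.58, standard error 0.39, adjusted p = 6.23e-11, limma), and RBL1, a pocket protein of the retinoblastoma family, at 510 ± 25.5 and 101 ± 37.8 (2.38, standard error 0.20, adjusted p = 6.11e-11, limma). TFDP1, the dimer partner of E2F factors, changed least (0.71, standard error 0.16, adjusted p = 0.000241, limma), followed by LIN54, the DNA-binding subunit of the MuvB core (0.83, standard error 0.17, adjusted p = 0.000121, limma). In these further lists, the E2F motif was found before 9 of 30 other replication genes (30%), 4 of 35 other mitotic genes (11.4%) and 5 of 9 regulators (55.6%). The CHR was found before 4 (13.3%), 21 (60%) and 2 (22.2%), and CCAAT before 14 (46.7%), 28 (80%) and 3 (33.3%).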

How the data were processed

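RNA of 34 samples was sequenced. Per the paper, the authors used bowtie2 and RSEM with Ensembl genes, and hg38, bcl2fastq and STAR are also named in the submitters' processing notes. Sequencing was split between providers, and which sample went to which is not given in the sources used here, nor is the strand setting, so TYMS and the antisense gene ENOSF1 that overlaps it may share reads. The deposited values are a normalised score: tag counts that the authors corrected for GC content and matched between samples (EDASeq), then rounded. The authors' table also gives a GC percent per gene, which ranged from 34.67 to 65.55 for the members and entered no test. Each sample summed to 17856940, so depth and counting error are unknown. An SD given here is the spread between the replicates of a population. The limma standard errors and p-values rest instead on the model described below, which pools the spread between replicates over all tested populations. They are therefore not the precision of the compared samples alone.

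Values were analysed as log2(value + 1), a scale that understates changes of low genes, by limma 3.58.1 (R 4.3.3). One linear model covered 33 samples of 11 populations, with variances moderated towards a trend (lmFit, eBayes). The undifferentiated sample entered no test. Of 20255 genes, 19788 reached 10 in 3 or more samples and were tested, with Benjamini-Hochberg adjustment over all of them. A gene was called at an adjusted p below 0.05 and a change above 4-fold, the thresholds of the authors, and "rose", "fell", "higher" and "lower" mark an adjusted p below 0.05. In all, 17 comparisons covered the CD43 sorts of each day, successive days, and the change of the CD43 difference between days. Values by sample were given for the member of each role with the largest day 12 change, for members opposite to their class, and for the highest and lowest member of each class in the other comparisons. Tables and figures were made with Python 3.11.15, pandas 2.3.3, numpy 2.4.6 and matplotlib 3.10.9.

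The members and the other gene lists were chosen with earlier results of these data known. To check pairing, each sample's deviation from its population mean was correlated across genes with that of the other sort bearing its number, and Pearson's r was 0.198, 0.109 and 0.199 on day 6, 0.0165 to 0.0782 on day 9, 0.0389 to 0.108 on day 12 and -0.0152 to 0.0418 on day 16. The rule that every r of a day exceed 0.1 was met on day 6 alone. A low r cannot show that same-numbered samples came from different cultures. The reported fit has no replicate block, and a fit with a block shared by all days was run as an alternative. A fit of same-numbered samples as pairs within each day was run for the CD43+ against CD43- comparisons alone. The alternatives were pseudocounts of 0.1 and 10, no filter, a filter at 100, median-of-ratios scaling, replicate blocks, a fit of the compared samples alone, no fold threshold, medians in place of class means, and leaving out each sample. The procedure was tested on simulated data. All reported coordinates are on GRCh38.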

Additional observations from a re-analysis of the deposited data

Results flagged for a closer look

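The difference between CD43+ and CD43- cells itself changed between days for some genes, in a test of that change (interaction term in limma, adjusted over all genes). From day 6 to day 9 it grew for 28 of 48 genes, 14 S-phase and 14 mitotic, against 8.63% of all genes, and 7.39% of all genes changed by over 4-fold, with 0 of the 48 among them. AURKA (1.26, standard error 0.22, adjusted p = 0.000172) and MCM6 (1.35, standard error 0.25, adjusted p = 0.000417) had the lowest adjusted p of the limma fit, and were named after their values were seen. The ends of the classes were BUB1 (1.76, adjusted p = 0.0393), MCM10 (1.67, adjusted p = 0.0505), KIF20A (0.11, adjusted p = 0.863) and CCNE1 (-0.26, adjusted p = 0.582) in limma. Leaving out replicate 2 of the day 6 CD43- cells gave 12 in place of 28, and the count was 15 and 13 without replicates 1 and 3 of the day 6 CD43+ cells, 11 without replicate 2 of the day 9 CD43- cells, and 14, 14 and 16 without replicates 1, 2 and 3 of the day 9 CD43+ cells. With a replicate block shared by all days it was 23, and with median-of-ratios scaling 20.

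From day 9 to day 12 the CD43 difference changed for 1 gene, CCNE1, which became lower in CD43+ relative to CD43- cells (-0.85, standard error 0.29, adjusted p = 0.0282, limma), against 15.1% of all genes lower and 9.0% called. It missed the threshold with median-of-ratios scaling, in a fit of the compared samples alone, and without replicate 1 or 3 of the day 9 CD43- cells, replicate 1 of the day 9 CD43+ cells, replicate 3 of the day 12 CD43- cells or replicate 1 of the day 12 CD43+ cells. CDC45 (1.11, adjusted p = 0.0743), NDC80 (1.02, adjusted p = 0.0906) and CCNB1 (-0.05, adjusted p = 0.921) did not pass in limma. Without replicate 1 of the day 12 CD43- cells 26 genes rose in this test, and without replicate 2 of the day 9 CD43- cells 4 did.

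From day 12 to day 16 it changed for 3 genes, upwards for KIF23 (1.76, standard error 0.35, adjusted p = 0.00102, limma) and BUB1B (1.14, standard error 0.38, adjusted p = 0.0408, limma) and downwards for CCNE1 (-0.82, standard error 0.29, adjusted p = 0.0496, limma), against 7.92% of all genes higher, 9.08% lower and 5.03% called. The sort by CD45 was added on day 16, so day and sort cannot be told apart. KIF23 stood at 590, 499 and 475 in day 12 CD43+ and 584, 208 and 307 in CD43- samples, and at 570, 542 and 604 against 94, 117 and 114 on day 16. The CD43+ ranges of the days overlap, and the day 16 CD43- values lie below all day 12 CD43- values, as for 10 of the 48 members. No gene was lower in this test with a pseudocount of 0.1, without the filter on low values, with median-of-ratios scaling or in a fit of the compared samples alone, where 1 gene was higher. Nor was any gene lower without replicate 2 of the day 12 CD43- cells, replicate 2 or 3 of the day 12 CD43+ cells, any one of the day 16 CD43- cells, or replicate 1 or 2 of the day 16 CD43+ cells. Without replicate 1, 2 or 3 of the day 12 CD43- cells, 1, 10 and 4 genes were higher, and 4 were lower without replicate 1. A single gene (1) was higher without any one of the day 12 CD43+ cells, replicate 1 of the day 16 CD43- cells, or replicate 1 or 3 of the day 16 CD43+ cells. POLE2 (-0.88, adjusted p = 0.104), CDC6 (0.59, adjusted p = 0.302) and CCNA2 (-0.23, adjusted p = 0.786) did not pass in limma.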

How the results depend on the processing

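Without a fold threshold, the number of members past an adjusted p of 0.05 was 19, 46, 48 and 48 for CD43+ against CD43- cells on days 6, 9, 12 and 16. It was 25, 37 and 15 for the successive steps of CD43+ cells, 2, 45 and 21 for those of CD43- cells, 4 and 5 for day 2 against day 0 and day 4 against day 2, 27 and 45 for day 6 CD43+ and CD43- cells against day 4, and 28, 1 and 3 for the changes of the CD43 difference. A fit of the compared samples alone called 0 members for CD43- cells from day 9 to day 12.

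Taking the median over members, the day 2 S-phase level was 0.20, the day 9 CD43+ mitotic level -0.36, and the mitotic minus S-phase difference -0.19 on day 2, -0.51 in day 6 CD43+, -0.31 in day 12 CD43+, -0.36 in day 16 CD43- and 0.15 in day 16 CD43+ cells. Median-of-ratios scaling gave 0.36 and -0.39 for the day 9 CD43+ S-phase and mitotic levels, -0.95 for the day 12 CD43+ mitotic level and -2.91 and -3.37 for the day 16 CD43- levels, for which a pseudocount of 10 gave -2.94 and -3.41. The same scaling turned CCNE1 to -0.057 on day 9 and the day 9 to day 12 change of CCNB1 to 0.064, and moved the median of all genes from 0.14 to 0 (day 6), 0.24 to 0.04 (day 9) and -0.15 to 0 (CD43+ cells, day 12 against 9).

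Leaving out single samples, the called counts ranged from 6 to 14 on day 9, 10 to 34 on day 12, 0 to 13 and 0 to 3 for the day 9 to 12 and day 12 to 16 steps of CD43- cells, 1 to 4 for day 6 CD43- cells against day 4, and 0 to 1 for the first and last change of the CD43 difference. Changes of sign lay within -0.38 to 1.28 for BUB1 (CD43- cells, day 12 to 16), -0.86 to 0.29 for CCNA2 (change of the CD43 difference, day 12 to 16), -0.28 to 0.32 for CCNB1 (day 9 to 12), -0.55 to 0.027 and -0.11 to 0.33 for CCNE1 and KIF20A (day 6 to 9), -0.27 to 0.17 for KIF20A (CD43- cells, day 6 to 9), -0.057 to 0.055 for CENPF (day 6 CD43+ against day 4) and -0.10 to 0.33 for ORC6 (day 6 CD43- against day 4).

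With a replicate block shared by all days, 0, 8, 24 and 30 members were called on days 6, 9, 12 and 16, and 18 were higher on day 6 at the adjusted p alone. The cause of these shifts was not tested. Sequencing depth is unknown, and 3 samples a population limit the precision.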
